A study of Drosophila melanogaster with 12 samples.

Results

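*upSET* and 4 genes whose products form the chromatin complex it works with, *Sin3A*, *Rpd3*, *lid*, and *MRG15*, were followed in nascent RNA from *Drosophila* S2 cells with and without *upSET* mutations. The 5 genes were chosen by name, as *upSET* (listed as CG9007) and the genes of the Rpd3/Sin3A complex named with it, and are 5 of 15998 genes listed. Nascent RNA is RNA still attached to transcribing Pol II, taken here from urea-washed chromatin, so the counts report transcription under way and not the amount of mRNA or protein. S2 cells are an embryo-derived male *Drosophila* line, here the strain S2-DRSC, and 4 lines with 2 libraries each were compared. S2 is the parental line, of wild type genotype. G3 carries a 67 bp deletion that takes away 5′ UTR sequence and the start ATG of *upSET* along with 10 bp of coding sequence. A7 carries separate 7 bp deletions near the start codon that shift the frame after 2 to 3 amino acids. B2 carries a 1 bp deletion that shifts the frame after 367 amino acids. All lines were grown in the same medium, and each mutant line is 1 clone, grown from a single sorted cell, so that the lesion and other differences between clones cannot be told apart.

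UpSET is the *Drosophila* relative of yeast Set3 and mammalian MLL5, with a PHD finger that reads histone marks and a SET domain. Sin3A is the scaffold on which Rpd3, a class I histone deacetylase (HDAC1 in mammals), is assembled, and the complex removes acetyl groups from histones. Lid is a demethylase of trimethylated histone H3 lysine 4, and MRG15 is a chromodomain protein that binds methylated histone H3 lysine 36 and is also a subunit of the Tip60 acetyltransferase complex.

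The targets of the guide RNAs with which Cas9 was directed to *upSET* are shown because they set where the clones carry their lesions. The lesions of G3 and A7 lie at the upset1 target, just downstream of the start codon, and that of B2 at the upset7 target, within the coding sequence. Both lie in *upSET* on chromosome arm 3L and are written 5′ to 3′ as 20 bases in lower case followed by the PAM, the 3 bases that Cas9 needs beside its target, in capitals.
upset1: aaccgagtcgtgactggacaTGG
upset7: acagcagatcagcctaccgcAGG

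In the dm3 assembly, *upSET* extends over chr3L:13995223-14013251, *Sin3A* over chr2R:8462745-8480196, *Rpd3* over chr3L:4626674-4629425, *lid* over chr2L:5989475-5999509, and *MRG15* over chr3R:11102159-11103839. The lengths range from 1681 bp for *MRG15* to 18029 bp for *upSET*. Counts are given per gene, so the small lesions cannot be seen in them, and the level of *upSET* does not check the labels. Sense counts per library summed to between 8333319 and 10902304 in replicate 1 and between 4738785 and 5427807 in replicate 2. Differences by replicate number and by depth therefore cannot be told apart. In these libraries 3 counts corresponded to between 0.283 and 0.642 CPM (the usual depth-scaled count, here with TMM factors). Of 8 hemocyte markers, the lineage S2 cells resemble, 5 were above 1 CPM in all libraries (*srp*, *Pxn*, *eater*, *Pvr*, and *ush*), whereas *NimC1* reached at most 0.66 CPM. The summed CPM of these 8 markers ranged from 14455 to 15310 in S2, from 13425 to 14592 in G3, from 16724 to 20021 in A7, and from 14784 to 17838 in B2, most of it *ush*. The other 7 summed to 2461 to 2738 in S2, 2205 to 2430 in G3, 1980 to 2211 in A7, and 2240 to 2468 in B2. Within them *Pxn*, at 790 to 807 CPM in S2, was lower in each clone, with 405 to 677 in G3, 228 to 236 in A7, and 496 to 657 in B2. The others did not move together. Mean CPM in S2, G3, A7, and B2 was 1.54, 8.24, 18.1, and 1.81 for *Hml*, with a wide spread in A7 (SD 17.5). In the same order it was 13.3, 13.9, 22.7, and 12.1 for *eater*, and 708, 797, 775, and 704 for *Pvr*. For *srp* it was 1068, 954, 1041, and 1050, and for *Sr-CI*, also with a wide spread, 10.3, 3.78, 5.41, and 10.3. Of 11 markers of other cell types, 3 were above 1 CPM in all libraries, which were *elav*, *nSyb*, and *Mef2*. Their summed CPM was higher in G3, at 1554 to 1727, than in S2, at 1370 to 1386, with 1351 to 1361 in A7 and 1343 to 1361 in B2. This difference was that of *Mef2* (1285 to 1323 CPM in S2 and 1483 to 1645 in G3), and the other 10 summed to 63.8 to 84.9 CPM in S2 and 71.8 to 82.0 in G3. Of the germ line markers, *nos* stayed below 1 CPM, while *vas* reached 2.09 CPM and *bam* 4.23 CPM, and the fat body markers *Lsp2* and *Yp1* stayed below 1 CPM. In such bulk libraries, fewer cells of a type and less RNA per cell cannot be told apart, and the part of these differences in the results was not tested.

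Each of the 5 genes was transcribed in every library, and their order per gene length was nearly the same throughout. In S2 the mean RPKM (CPM per kilobase of gene extent) was 62.1 ± 0.57 for *Sin3A*, 30.8 ± 0.88 for *upSET*, 21.2 ± 0.13 for *lid*, 18.5 ± 7.17 for *Rpd3*, and 11.5 ± 0.66 for *MRG15* (SD, n = 2). The median of the 9612 genes tested was 7.68, and the 5 genes stood at the 96.0th, 89.9th, 83.0th, 79.5th, and 64.5th percentile. *Sin3A* was above *upSET*, and *upSET* above the other 3 genes, in 8 of 8 libraries, and *MRG15* was the lowest in all 8. *Rpd3* and *lid* did not keep an order, with *lid* the higher in 6 of 8 libraries and *Rpd3* in the replicate 2 libraries of S2 and G3. Whether reads in introns were counted is not given in the sources used here, and the extents include them, so these levels depend on the structure of each gene.

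**Figure D1:**
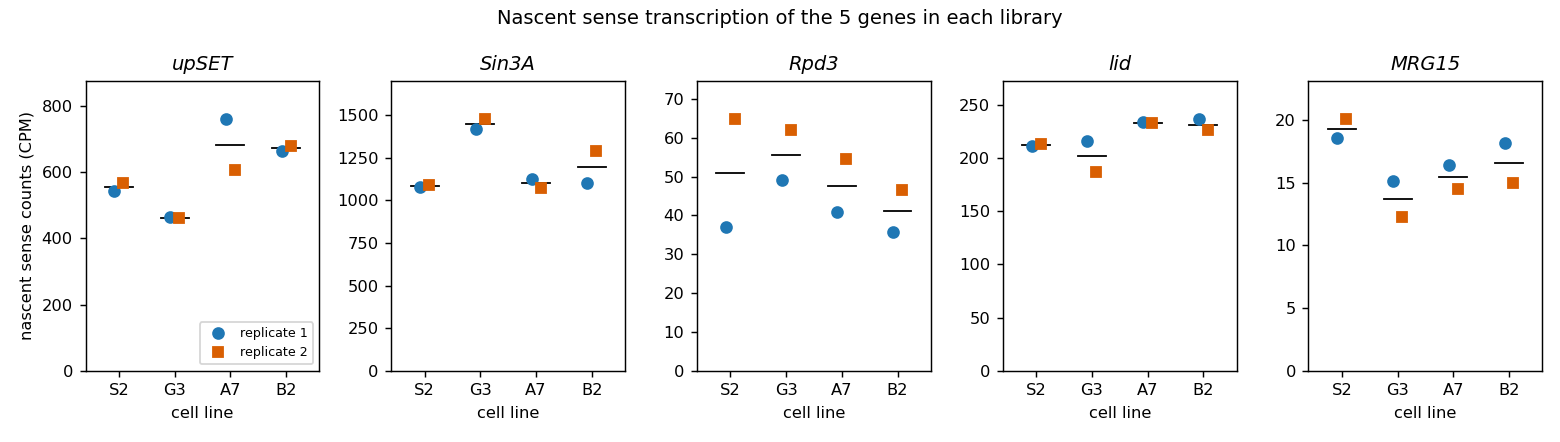
Sense counts in CPM (vertical axes, each starting at 0) of *upSET*, *Sin3A*, *Rpd3*, *lid*, and *MRG15* in the 2 libraries of S2, G3, A7, and B2 (horizontal axes); circles are replicate 1, squares replicate 2, and the line is their mean. G3 has the lowest *upSET* libraries, at 464 and 460 CPM, and the highest *Sin3A* libraries, at 1417 and 1478 CPM, and replicate 2 of *Rpd3* lies above replicate 1 in all 4 lines.

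The first question was whether the mutated gene itself was still transcribed. It was. In these libraries G3 had the lowest *upSET* transcription of the 4 lines and A7 and B2 the highest, a difference that only some of the fits below called. The sense CPM of *upSET* was 544 and 566 in S2, 464 and 460 in G3, and 761 and 605 in A7, with 664 and 679 in B2 (replicates 1 and 2). The libraries of G3 lay below both S2 libraries, those of A7 and B2 above both, and those of A7 overlapped with those of B2. The share of all tested genes whose libraries lay apart in this way is not given, here or for the genes below. Such orders of libraries are therefore descriptions. Against S2, the log2 fold change (log2FC) was −0.26 ± 0.13 in G3 (SE, adjusted p = 0.553 with edgeR's quasi-likelihood test), which is 0.83-fold with a 95% interval of 0.67 to 1.04. For A7 it was 0.30 (adjusted p = 0.601 with edgeR, fold 0.99 to 1.53, log2FC from 0.13 to 0.45 when each library was left out) and for B2 0.28 (adjusted p = 0.999 with edgeR, fold 0.97 to 1.51). None of these passed the threshold of an adjusted p under 0.05. These comparisons share the S2 libraries. Those between the clones do not compare with S2, but their spread and scaling were estimated from all 8 libraries. The comparisons of G3 with A7 and with B2 share the G3 libraries.

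Between the clones, *upSET* was 0.68-fold in G3 relative to A7 (log2FC −0.56 ± 0.13, 95% interval of the fold 0.54 to 0.84) and 0.69-fold relative to B2 (log2FC −0.54 ± 0.13, 0.55 to 0.86). With edgeR's quasi-likelihood test without a replicate block, the adjusted p was 0.297 and 0.233, and 0.208% and 0.239% of the tested genes were called. Libraries with the same replicate number deviated together across the lines, and in an edgeR fit that takes the replicate number in as a block *upSET* was called lower in G3 than in A7 (adjusted p = 0.0406) and than in B2 (adjusted p = 0.0398). That fit called 2.99% and 3.85% of the tested genes. Each of these calls held in 2 of 8 edgeR fits with the block from which 1 library was left out, with adjusted p-values of up to 0.16 and 0.371, whereas the direction held in all 8. Without A7 replicate 1, the difference to A7 went from −0.56 to −0.38 in that fit. A7 and B2, whose frameshifts lie at different distances from the start codon, differed by 0.02 on the log2 scale, with an interval from −0.29 to 0.34 (adjusted p = 0.999 with edgeR, with 0.291% of the tested genes called, and 3.9% with the block).

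*Sin3A*, the scaffold, had its highest transcription in G3, the line where *upSET* was lowest. Its sense CPM was 1076 and 1090 in S2, 1417 and 1478 in G3, and 1123 and 1075 in A7, with 1100 and 1288 in B2. Both G3 libraries lay above all 6 others, those of A7 overlapped with those of S2, and those of B2 lay above both of S2 with a wide spread. The fold in G3 over S2 was 1.34, with a 95% interval from 1.11 to 1.61 (log2FC 0.42 ± 0.12). In the edgeR fit without the block it was not called (adjusted p = 0.231), and in the fit with the block it was (adjusted p = 0.0443). The fits called 0.603% and 5.85% of the tested genes, respectively, so that in the blocked fit 1 of 5 members passed. The call held in 2 of 8 blocked fits that left out 1 library, namely those without an A7 library, with adjusted p-values from edgeR between 0.0287 and 0.195 and a log2FC between 0.42 and 0.46. Among the markers of other cell types given above, *Mef2* was also highest in G3, whereas the sum of the other 10 overlapped with S2, and their part in this difference was not tested.

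In A7 and B2, no difference of *Sin3A* from S2 was called by edgeR with or without the block, although both B2 libraries lay above both of S2. The log2FC was 0.02 in A7 (95% interval −0.25 to 0.29), and −0.02 when the counts were scaled by library size alone, and 0.14 in B2 (−0.13 to 0.41). Relative to A7, *Sin3A* was 1.32-fold in G3 (95% interval 1.09 to 1.59), and relative to B2 1.21-fold (1.00 to 1.46). The adjusted p of these comparisons was 0.46 and 0.581 with edgeR without the block, and 0.0796 and 0.184 with it. Scaling by library size alone moved the median log2FC of all tested genes in G3 by −0.12, and relative to that median *Sin3A* stood at 0.48 with either scaling.

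**Figure D2:**
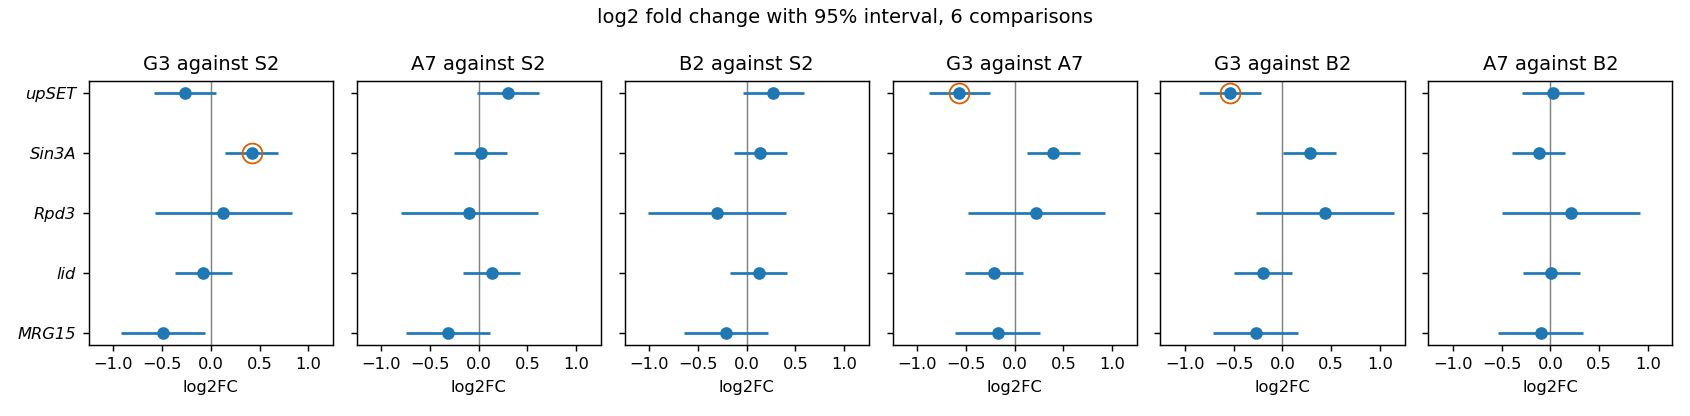
log2FC (horizontal axes) of the 5 genes in the 3 comparisons with S2 and the 3 between clones; points are estimates of the edgeR fit without the block, lines their 95% intervals, and open rings mark an adjusted p under 0.05 in the fit with the block. The rings are on *Sin3A* in G3 against S2, at 0.42, and on *upSET* in G3 against A7 and B2, at −0.56 and −0.54.

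Because *upSET* was lowest and *Sin3A* highest in G3, their ratio had to be highest in that clone, and it is given as a description only. The ratio does not depend on how the libraries were scaled. *Sin3A* had 2.04 and 1.99 times the RPKM of *upSET* in S2, 3.16 and 3.32 times in G3, 1.53 and 1.83 times in A7, and 1.71 and 1.96 times in B2. The ratios of G3 lay above all others, and those of A7 and B2, which overlapped, lay below both of S2. With 2 libraries per line, no exact permutation test of such a ratio between a pair of lines can reach the threshold, and none was made. The ratio of *lid* to *MRG15* was 1.91 and 1.78 in S2 and between 2.19 and 2.69 in the 6 mutant libraries, whereas that of *Sin3A* to *Rpd3* ranged between 2.65 and 4.86 and overlapped among the lines.

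**Figure D3:**
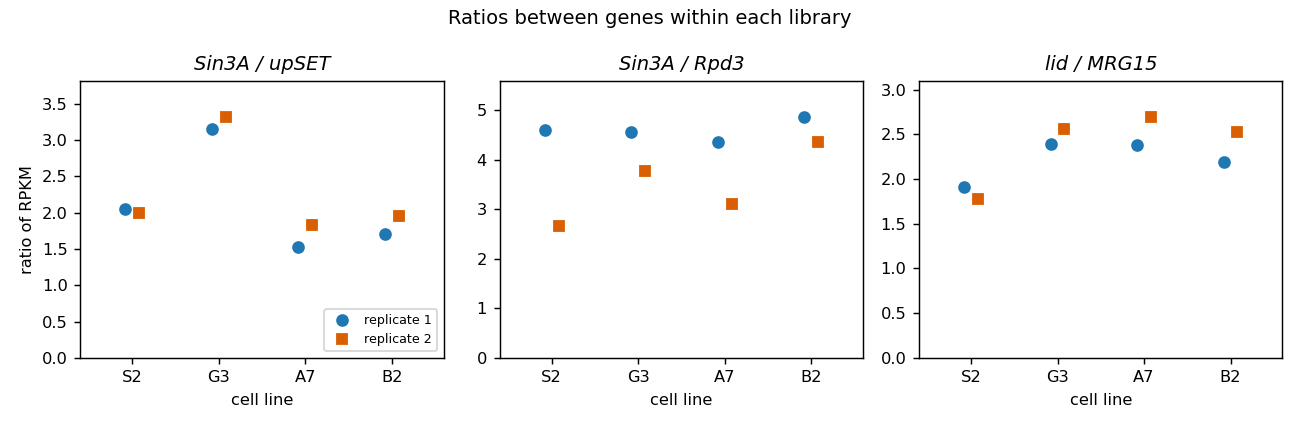
Ratio of RPKM between *Sin3A* and *upSET*, *Sin3A* and *Rpd3*, and *lid* and *MRG15* (vertical axes, from 0) within each library of S2, G3, A7, and B2; circles are replicate 1 and squares replicate 2. *Sin3A* to *upSET* reads 3.16 and 3.32 in G3 and at most 2.04 in the other lines.

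*MRG15*, the chromodomain subunit, had the fewest counts, between 63 and 174 per library. Its sense CPM was 18.5 and 20.1 in S2, 15.1 and 12.2 in G3, and 16.4 and 14.5 in A7, with 18.1 and 15.0 in B2. All 6 mutant libraries were below both S2 libraries, and those of the 3 clones overlapped with each other. As for *upSET*, the share of tested genes placed this way is not given, so the order is a description. For G3, A7, and B2, the log2FC was −0.49, −0.31, and −0.21, each ± 0.18 (SE) and against the same S2 libraries. The adjusted p from edgeR was 0.389, 0.709, and 0.999 without the block and 0.134, 0.35, and 0.71 with it, so no change was called. In G3 the 95% interval of the fold was 0.53 to 0.96. Its size depended on single libraries, with a log2FC of −0.30 without G3 replicate 2.

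*Rpd3*, the deacetylase, varied more between replicate numbers than between lines. The sense CPM was 37.0 and 64.9 in S2, 49.0 and 61.9 in G3, and 40.8 and 54.5 in A7, with 35.7 and 46.6 in B2. Replicate 2 was higher in 4 of 4 lines, by 0.49 on the log2 scale on average, and every mutant line overlapped with S2. For G3, A7, and B2, the log2FC was 0.13, −0.10, and −0.31, each with an SE of 0.30, and the adjusted p from edgeR was between 0.93 and 0.999. The 95% interval of the fold reached from 0.67 to 1.78 in G3, from 0.57 to 1.52 in A7, and from 0.50 to 1.32 in B2. Changes within these intervals remain possible. With the block the SE fell to 0.14, and the adjusted p was 0.546, 0.853, and 0.571 with edgeR. Leaving out S2 replicate 1 gave −0.23 in G3, and leaving out S2 replicate 2 gave 0.41 in A7 and 0.18 in B2, each a change of direction.

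*lid*, the H3K4 demethylase, varied least, with 1.27 times as much CPM in its highest library as in its lowest, compared with 1.37 times for *Sin3A* and 1.63 to 1.81 times for the other 3 genes. Its sense CPM was 212 and 213 in S2, 216 and 187 in G3, and 233 and 233 in A7, with 237 and 226 in B2. The libraries of A7 and B2 lay above both of S2 and those of G3 on both sides. For G3, A7, and B2, the log2FC was −0.08, 0.13, and 0.12, with SE 0.12, and the adjusted p from edgeR was 0.889, 0.834, and 0.999. The fold intervals were 0.77 to 1.16 in G3, 0.90 to 1.34 in A7, and 0.89 to 1.33 in B2. Without G3 replicate 2 the value in G3 was 0.07.

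Counted over the 5 genes, edgeR's quasi-likelihood test without the block called 0 of 5 in each line, where it called 0.603% of all tested genes in G3, 0.375% in A7, and 0.0104% in B2. At an unadjusted p under 0.05 there were 2 of 5 in G3 (*Sin3A* and *MRG15*) and 0 in A7 and B2, beside 11.1%, 8.75%, and 3.25% of all tested genes. DESeq2, edgeR's exact test, and the fits with other filters or scalings, with strands summed, or with the compared lines alone also called 0 of 5 in each line. With the block, 1 of 5 was called in G3, where 5.85% of the tested genes were, and 0 of 5 in A7 and B2, with 3.67% and 0.427%. When asked once whether a gene differed among any of the 4 lines, *upSET* had an adjusted p of 0.275 without and 0.0457 with the block, and *Sin3A* 0.383 and 0.0751, while 0.572% and 7.65% of the tested genes were called by these edgeR fits. The call of *upSET* held in 2 of 8 blocked fits with 1 library left out. For G3, A7, and B2, the 5 genes had a median log2FC of −0.08, 0.02, and 0.12, beside −0.06, −0.05, and −0.03 over all tested genes.

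Of 10 other subunits of the Rpd3/Sin3A complexes, 0 were called in any line by edgeR with or without the block. Over all tested genes, 0.603%, 0.375%, and 0.0104% were called in G3, A7, and B2 without the block, and 5.85%, 3.67%, and 0.427% with it. At such shares, 0 of a short list does not show that its genes are unchanged. The list held *Caf1-55*, *Pf1*, *Sds3*, *Sap30*, *Sap130*, *Bin1*, *EMSY*, *htk*, *Ing1*, and *Brms1*. *Sds3*, which in mammals helps to hold the deacetylase on the scaffold, had the lowest log2FC of the list in G3 and A7. Its sense CPM was 14.9 and 15.5 in S2, 10.2 and 7.96 in G3, and 10.1 and 10.8 in A7, with 14.4 and 15.0 in B2. The libraries of G3 and A7 lay below those of S2. The log2FC was −0.73 ± 0.19 in G3 (edgeR's adjusted p = 0.196 unblocked and 0.0615 blocked) and −0.55 ± 0.18 in A7 (0.439 and 0.152). Between 38.0% and 66.1% of the counts on *Sds3* in a library were antisense, and when both strands were summed the log2FC was −0.22 in G3 and 0.01 in A7. The highest log2FC of the list was 0.21 for *Brms1* in G3, 0.31 for *Bin1* in A7, and 0.18 for *Bin1* in B2, and the lowest in B2 was −0.18 for *htk*. The list medians were −0.10, −0.02, and −0.02 for G3, A7, and B2.

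Among related genes outside the complex, 0 were called in any line by edgeR with or without the block, of 8 other deacetylases tested (*HDAC11* was too low to be tested), 10 genes of other corepressor complexes, 13 of the Tip60 complex, and 8 methyltransferases and demethylases. The shares of all tested genes that these fits called are those given above for the other subunits. At an unadjusted p under 0.05 without the block, these lists and the other subunits together had 6 such genes of 49 for G3, 2 for A7, and 0 for B2, where these were 11.1%, 8.75%, and 3.25% of all tested genes. *groucho* (*gro*), a corepressor that recruits Rpd3, had 174 and 167 CPM in S2, 239 and 236 in G3, and 188 and 164 in A7, with 184 and 219 in B2. Its G3 libraries were above all 6 others, and the log2FC in G3 was 0.48 ± 0.14 (edgeR's adjusted p = 0.26 unblocked and 0.0614 blocked). *CoRest*, which joins Rpd3 to the demethylase Su(var)3-3, had 67.7 and 59.8 CPM in S2, 46.3 and 48.7 in G3, and 52.5 and 47.8 in A7, with 62.4 and 68.0 in B2. Its libraries in G3 and A7 lay below those of S2 (log2FC −0.43 ± 0.13 and −0.35 ± 0.13, edgeR's adjusted p 0.302 and 0.516 unblocked, 0.0842 and 0.174 blocked).

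The remaining extremes of these lists were as follows, all of them not called. Of 30 such extremes, those of the complex included, 6 changed direction and 14 others moved by over 1.5 times when single libraries were left out, so their order in a list is a description of these libraries. Among deacetylases, *HDAC6* was lowest in G3 and A7 (log2FC −0.45 and −0.30) and *Sirt6* in B2 (−0.20), and *HDAC3* was highest in G3 and A7 (0.30 and 0.29) and *Sirt4* in B2 (0.34). Among corepressor genes, *Mi-2* was highest in A7 (0.09), *gro* in B2 (0.24), and *MBD-like* lowest in B2 (−0.35). In the Tip60 complex, which acetylates histones and shares *MRG15*, the acetyltransferase gene *Tip60* was highest in G3 and B2 (0.35 and 0.24) and *YL-1* in A7 (0.46), and *Gas41*, *MrgBP*, and *rept* were lowest in G3, A7, and B2 (−0.54, −0.34, and −0.40). Among the methyltransferases and demethylases, *NO66* was highest in G3 and A7 (0.28 and 0.22) and *JHDM2* in B2 (0.23), and *Kdm4A* was lowest in G3 (−0.17) and *ash1* in A7 and B2 (−0.11 and −0.05). The medians of these 4 lists lay between −0.10 and 0.08 in the 3 lines.

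**Figure D4:**
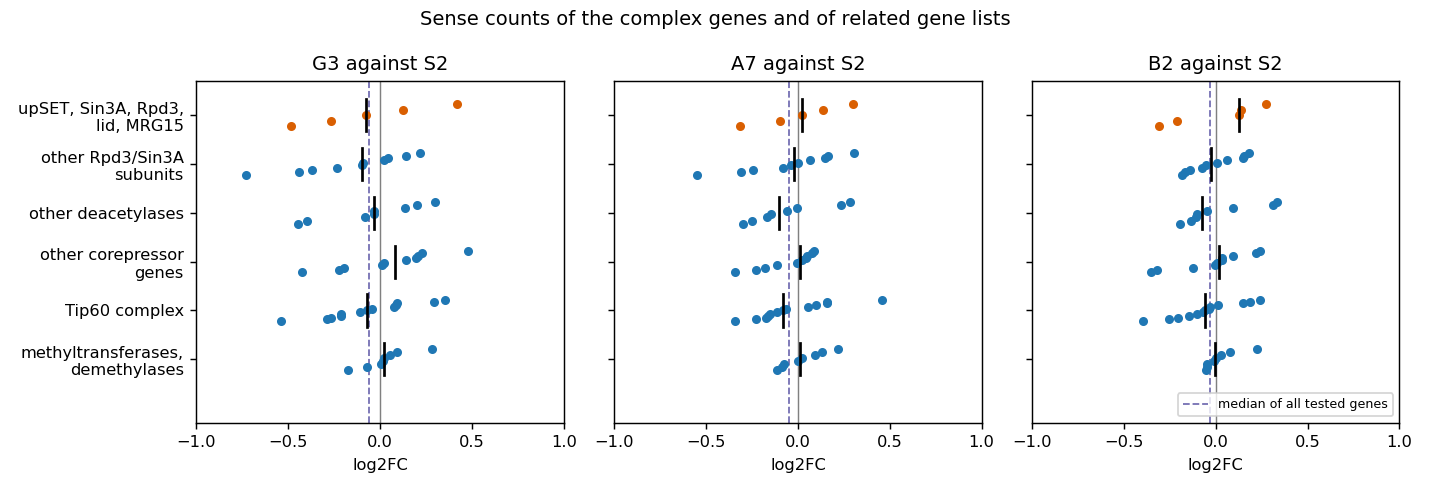
log2FC against S2 (horizontal axes) of the 5 genes and of each tested gene of 5 related lists in G3, A7, and B2; each point is a gene, black bars are list medians, and the dashed line is the median of all 9612 tested genes (−0.06, −0.05, and −0.03). *Sds3* is the lowest point in G3, at −0.73, and *gro* the highest, at 0.48.

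Reads on the opposite strand were also counted over the same loci, since the libraries were made with a directional kit. Antisense counts were 8.59% to 10.95% of the counts of a library, and pooled over libraries they were 0.80% of the counts on *upSET*, 3.21% on *Sin3A*, 0.36% on *Rpd3*, 3.49% on *lid*, and 10.3% on *MRG15*, beside a median of 5.66% over the tested genes. *upSET* and *Rpd3* thus had little antisense signal, at the 15.8th and 5.83rd percentile of the tested genes. Intervals on such shares cover counting error only. Similarly low mean shares in S2 were seen on other genes with many sense counts, 0.69% on *ush* and 0.73% on *Mef2*. How far such low shares are antisense transcription or sense reads given the wrong strand was not tested.

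The antisense share of *upSET* was 1.24% and 0.59% in S2, 0.38% and 1.04% in G3, and 1.14% and 1.02% in A7, with 0.49% and 0.28% in B2, from 9 to 93 counts. S2 and G3 overlapped, and the libraries of B2 lay below both of S2 and of A7. The exact 95% binomial interval was 0.95% to 1.60% and 0.35% to 0.92% in S2, and 0.33% to 0.71% and 0.13% to 0.54% in B2, so that S2 replicate 2 was not apart from B2 within counting error. Against S2, no change of antisense counts was called (log2FC −0.61 ± 0.58, 0.54 ± 0.55, and −0.78 ± 0.58 for G3, A7, and B2, adjusted p = 1 with edgeR in each), and in the blocked edgeR fit the adjusted p was 0.65, 0.732, and 0.611. Without G3 replicate 1 the value in G3 was 0.11, the other direction. Asked once whether antisense *upSET* differed among any of the 4 lines, edgeR gave an adjusted p of 1 without the block and 0.0364 with it, where 0.73% and 4.91% of the tested genes were called. That call held in 3 of 8 blocked fits with 1 library left out (adjusted p between 0.0012 and 0.773 with edgeR). Between the clones, the antisense log2FC was 1.32 ± 0.58 for A7 against B2 (adjusted p = 1 with edgeR and 0.0869 with the block, with 0.27% and 1.43% of the tested genes called) and −1.15 ± 0.57 for G3 against A7 (1 and 0.0888, with 0.349% and 1.42%). Of the other 4 genes, 0 were called among the lines on this strand in either fit.

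*Sin3A* had 164 to 496 antisense counts, with shares of 3.90% and 2.71% in S2, 3.33% and 2.97% in G3, and 3.32% and 3.67% in A7, with 2.80% and 2.65% in B2. The lines overlapped except that B2 stayed below G3 and A7. A gene listed as CR30055 lies within the extent of *Sin3A* (1580 bp) and *ClC-b* overlaps it by 209 bp, so reads over these stretches may be counted for more than 1 gene, and CR30055 had 65 to 173 sense and 329 to 924 antisense counts. For G3, A7, and B2, the antisense log2FC of *Sin3A* was 0.32, 0.06, and 0.03, each ± 0.38, and the last was negative with DESeq2 or the other scalings (adjusted p = 1 with edgeR in each).

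*lid* showed its spread on this strand by replicate number. The antisense share was 4.65% and 1.71% in S2, 3.43% and 1.83% in G3, and 5.03% and 3.10% in A7, with 3.74% and 1.40% in B2, so replicate 1 was higher in all 4 lines. The antisense log2FC of *lid* against S2 was −0.31, 0.50, and 0.00 for G3, A7, and B2, with SE 0.51 to 0.52 (adjusted p = 1 with edgeR in each), and for B2 it was down to −0.17 with DESeq2 or the other scalings.

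*MRG15* had the highest antisense share of the 5 genes, between 7.23% and 12.6%, from 8 to 25 counts per library. Its listed extent overlaps that of CG4338 by 38 bp and ends 30 bp before *l(3)neo43*. The lines overlapped, and for G3, A7, and B2 the antisense log2FC was −0.45 ± 0.70, −0.20 ± 0.69, and −0.40 ± 0.71 (adjusted p = 1 with edgeR in each). *Rpd3* had 4, 2, and 4 antisense counts in replicate 1 of S2, G3, and A7, and 0 in the other 5 libraries. In B2, 0 of 303 and 0 of 218 counts were antisense, which allows shares of up to 0.99% and 1.38% at 3 counts of the total (1.21% and 1.68% as exact 95% binomial limits), so no fold is given. Of the 5 genes, 0 were called on the antisense strand in G3, A7, or B2 by edgeR without or with the block or by DESeq2, and 0 had an unadjusted p under 0.05 in either edgeR fit, where the edgeR fit without the block called 0.444%, 0.293%, and 0.0634% of 12610 tested genes and that with the block 1.96%, 2.1%, and 1.51%.

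**Figure D5:**
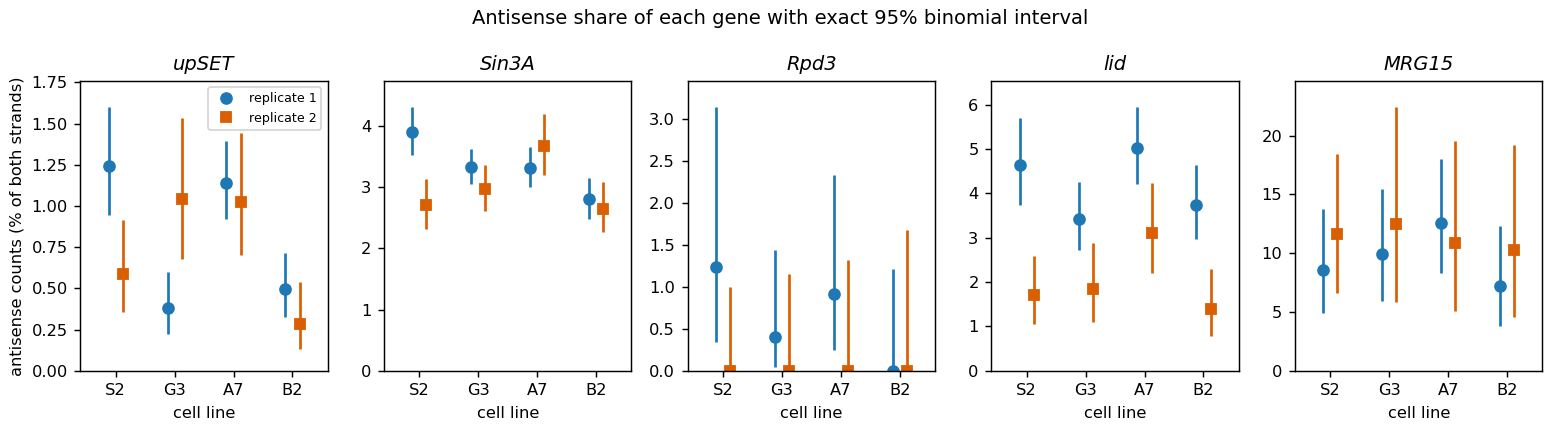
Antisense counts as a percent of the sense and antisense counts of each gene (vertical axes, from 0) in each library of S2, G3, A7, and B2; circles are replicate 1, squares replicate 2, and lines exact 95% binomial intervals. For *lid*, replicate 1 lies above replicate 2 in all 4 lines, as it did for the antisense share of all counts. *Rpd3* is at 0 in 5 libraries.

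The genes whose sense log2 CPM followed each of the 5 most closely over the 8 libraries were taken as a description, the highest of 9612 values of Pearson's r with points that share lines, replicate numbers, and depth. For *upSET* they were *Hel89B* (r = 0.96), *Pabp2* (0.94), and CG15390 (0.93), and for *Sin3A* *ftz-f1* (0.98), *gro* (0.97), and *JIL-1* (0.96), the gene of a kinase of histone H3. They were CG2990 (0.98), *rec* (0.96), and CG12129 (0.96) for *Rpd3*, *fan* (0.98), *koi* (0.96), and *pall* (0.93) for *lid*, and *Orc1* (0.98), CG9791 (0.97), and CG8314 (0.96) for *MRG15*. Among the 5 genes themselves, r was highest between *upSET* and *lid*, at 0.80, and lowest between *Sin3A* and *MRG15*, at −0.74.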

How the data were processed

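Nascent RNA was sequenced from 4 S2 lines with 2 libraries each; 4 embryo ChIP-seq samples of the series were not analysed here. The authors trimmed adaptors, aligned reads uniquely to dm3 (Bowtie 0.12.7 and bedtools per the submitters' processing notes), split them by strand, and deposited whole-number counts per gene, not normalized. How reads were assigned to genes is not given in the sources used here. The second library of each line, numbered differently in the column names, was taken as replicate 2. The labels do not say whether the 2 libraries of a line are separate cultures, so p-values measure the spread between these libraries, which may be technical.

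The deposited counts were tested with edgeR 4.0.16 (R 4.3.3): genes with at least 1 CPM in at least 2 of 8 libraries, TMM factors, one quasi-likelihood fit of 8 libraries with a coefficient per line, and Benjamini-Hochberg adjustment over all genes tested on a strand (9612 sense, 12610 antisense), with an adjusted p under 0.05 as the threshold. The study names edgeR and TMM, and the other settings were chosen here. Libraries with the same number deviated together from the means of their lines (r over genes between 0.50 and 0.63 for every pair of lines), so the numbers were taken to pair the libraries, and the fit with a replicate block is given beside the other where it changes a call. The common dispersion was 0.0657 without and 0.0143 with the block. Fits were tested on simulated counts that held large changes and no replicate effect. Such counts do not test the fit with the block at the smaller changes reported here. Alternatives were DESeq2 1.42.0, library size alone, other filters, the compared lines alone, edgeR's exact test, strands summed, sense library sizes for antisense counts, and leaving out each library.

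The 5 genes, the lists, and the rules were chosen with earlier results of these data known. Named are the 5 genes, the highest and lowest gene of each list in each line, genes overlapping the 5, and the 3 genes most correlated with each. List names were matched by symbol or synonym; *EMSY* was matched as CG15356.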

Additional observations from a re-analysis of the deposited data

Results flagged for a closer look

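*upSET* transcription was lower than S2 in both G3 libraries and higher in both libraries of A7 and of B2, compared with the same-numbered S2 library (log2 differences of −0.23 and −0.30 for G3, 0.48 and 0.10 for A7, and 0.29 and 0.26 for B2). The difference between the lines was a log2FC of −0.56 for G3 against A7 and −0.54 for G3 against B2, which edgeR called with the replicate block (adjusted p = 0.0406 and 0.0398) and not without it (0.297 and 0.233). The blocked fit called 2.99% and 3.85% of all tested genes in these comparisons. Most blocked fits without 1 library did not keep these calls. Their log2FC lay between −0.73 and −0.38 against A7 and between −0.60 and −0.44 against B2.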

How the results depend on the processing

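Over 50 log2FC and adjusted p-values of the 5 genes, 668 of 715 values under the alternatives kept their direction and their side of the threshold, 31 changed direction, and 16 passed the threshold. Those 16 all come from the replicate block: *Sin3A* in G3 against S2 (log2FC 0.42, adjusted p = 0.0443), *upSET* in G3 against A7 (−0.56, 0.0406) and B2 (−0.54, 0.0398), *upSET* among all lines (adjusted p = 0.0457 with edgeR on the sense and 0.0364 on the antisense strand), and these edgeR fits without 1 library, chosen after seeing the data. There *Sin3A* passed without either A7 library (both 0.42), *upSET* against A7 without S2 replicate 2 or A7 replicate 2 (−0.56 and −0.73), and *upSET* against B2 without either A7 library (both −0.54). Among all lines, *upSET* passed on the sense strand without either A7 library (adjusted p = 0.0352 and 0.0158 with edgeR), and on the antisense strand without S2 replicate 1 or 2 or G3 replicate 2 (0.00174, 0.0012, and 0.00455). The antisense comparisons among all lines and between clones were added after seeing the data. The block changed no other call of the 5 genes or of the lists.

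The number of sense calls over all genes, 58 in G3, 36 in A7, and 1 in B2, was 562, 353, and 41 with the block, 200, 162, and 38 with DESeq2, 210, 176, and 42 with edgeR's exact test, 171, 156, and 32 with no filter, and 15, 12, and 0 with the compared lines alone. It was 0 in B2 with library size alone, 20 in A7 with strands summed, and 17 to 46, 12 to 32, and 0 to 2 when each library was left out in turn. The antisense calls, 56, 37, and 8, were 247, 265, and 191 with the block, 93, 64, and 27 with no filter, 33, 19, and 0 with sense library sizes, and in B2 18 with DESeq2 and 2 with library size alone. Leaving out each library gave 58 to 184, 28 to 208, and 3 to 263. The cause of these shifts was not tested.

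With all libraries, few values changed direction: *Sin3A* in A7 (−0.018 with library size alone), *Sds3* in A7 (0.013 with strands summed), and on the antisense strand in B2 *Sin3A* (−0.021 with DESeq2, −0.11 with library size alone, −0.15 with sense library sizes) and *lid* (−0.073, −0.16, and −0.17 likewise, −0.0011 with no filter, −0.0073 with the block).

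The log2FC of *Rpd3* lay between −0.23 and 0.63 for G3, −0.45 and 0.41 for A7, and −0.66 and 0.18 for B2 when each library was left out. That of *lid* lay between −0.15 and 0.070 in G3, and that of *Sin3A* between −0.011 and 0.079 in A7. For A7 against B2 the ranges were −0.15 to 0.18 (*upSET*), −0.23 to 0.031 (*Sin3A*), −0.0093 to 0.44 (*Rpd3*), and −0.20 to 0.051 (*MRG15*). On the antisense strand they were, in G3, −1.64 to 0.11 (*upSET*), −0.79 to 0.24 (*lid*), and −0.97 to 0.20 (*MRG15*), in A7, −0.0068 to 0.24 (*Sin3A*) and −0.67 to 0.46 (*MRG15*), and in B2, −0.26 to 0.27 (*Sin3A*), −0.71 to 0.55 (*lid*), and −0.94 to 0.24 (*MRG15*). List genes that changed direction were *Gas41* in G3 (−1.01 to 0.16), *Bin1* in A7 (−0.31 to 0.70) and B2 (−0.12 to 0.47), and, in B2, *Sirt6* (−0.40 to 0.012), *rept* (−0.74 to 0.055), and *ash1* (−0.089 to 0.0062). With 2 libraries per line and at most 174 sense counts of *MRG15* and 93 antisense counts of *upSET* in a library, small differences may have been missed. No detection limit was computed.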
